A study of Mus musculus with 8 samples.

Results

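The 77 genes described here encode the mitochondrial ribosomal proteins of the mouse. They are all the protein-coding rows whose symbol begins with Mrpl or Mrps followed by a number, out of 47729 genes listed. Their polyA RNA was measured by bulk sequencing in γδ T cells, T cells whose receptor has a γ and a δ chain, which had been sorted out of visceral fat of C57BL/6 mice. Of the 8 samples, 4 came from mice fed a ketogenic diet (KD), a diet high in fat and low in carbohydrate that raises ketone bodies, and 4 from mice fed control chow. Feeding lasted 1 week. The labels give no age, sex or genetic change and leave unstated if each library stands for 1 animal or several. A p-value here therefore sets the diet difference against the spread among libraries within a diet, part of which may be technical. The comparison asks what adipose γδ T cells express when the animal turns to fat and ketones for fuel.

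Mitochondria keep their own ribosome. It is built in the organelle from 2 rRNAs that the mitochondrial genome encodes, mt-Rnr1 and mt-Rnr2, and from proteins that are encoded in the nucleus, made in the cytosol and imported. Its small subunit reads the mRNA and its large subunit joins the amino acids. Its products, encoded by 13 genes of the mitochondrial genome, are core subunits of the respiratory chain and ATP synthase. Some of its proteins descend from bacterial ribosomal proteins, called conserved here, and others were added in the mitochondrial lineage, called mitochondria-specific. These classes follow the human ribosome. Mrps18a and Mrps18b are classed as mitochondria-specific although they are homologues of bacterial S18.

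By this division the members hold 16 conserved and 10 mitochondria-specific proteins of the small subunit, and 30 conserved and 20 mitochondria-specific proteins of the large subunit. The symbols are not a perfect guide. Mrps18a and Mrps30 carry the letter of the small subunit but sit in the large subunit. Mrps36 is known as a subunit of the 2-oxoglutarate dehydrogenase complex, not of the ribosome, and was kept because the rule is by symbol. Another 6 mitoribosomal proteins have symbols of other kinds (Dap3, Chchd1, Aurkaip1, Ptcd3, Gadd45gip1 and Ict1) and are given with the pathway.

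Library totals ran from 19796126 to 26572328 counts in KD and from 23940838 to 31926441 in chow. All 10 genes of the γδ T cell list were tested and were high in every library. The list includes the CD3 chain genes Cd3d, Cd3e, Cd3g and Cd247, which other T cells also express. The 10 genes summed to 12091 to 13669 CPM in KD and 11720 to 12226 CPM in chow (CPM, counts scaled to a common library size). Of the 10, 9 had a positive fold change, 5 an unadjusted p under 0.05 and 0 an adjusted one (edgeR). Over all tested genes these shares were 50.9%, 8.64% and 0.508%. The mean log2 CPM of the list did not overlap, at 9.82 to 9.96 in KD and 9.71 to 9.78 in chow. Blk, Cd247, Tcrg-C1 and Tcrg-C2 lay wholly above chow, as did 3.30% of all tested genes. Trdc, the δ chain constant region, overlapped at 4004 to 4760 CPM in KD and 3952 to 4176 CPM in chow. Of the αβ T cell list, Cd4 was at 0 in all 8 libraries, Cd8a and Cd8b1 were at 0 in 6 and 3, and the receptor constant genes were present in all. Trac stood at 86.5 to 128 CPM in KD and 51.9 to 88.1 CPM in chow, Trbc1 at 254 to 325 CPM in KD and 253 to 367 CPM in chow, and Trbc2 at 442 to 600.4 CPM in KD and 447 to 495 CPM in chow. Libraries differed in RNA of other cells. Of the adipocyte list, Lep was at 0 in all 8 libraries, Adipoq and Plin1 in 7 each and Cidec in 6, but Fabp4, the only one tested and a gene that endothelial cells also express, had 4.19, 5.01, 216 and 386 CPM in KD replicates 1 to 4 and 33.0, 2.88, 9.12 and 17.7 CPM in chow replicates 1 to 4. The 10 tested stromal and mesothelial markers summed to 25.8 to 628 CPM in KD and 10.6 to 217 CPM in chow, and the 7 tested endothelial markers to 51.9 to 340.1 CPM in KD and 49.4 to 98.4 CPM in chow. All 10 and all 7 had a positive fold change, with log2 medians of 3.02 and 2.29. Krt19, at 1.33 to 9.94 CPM in KD and 0 to 0.0749 CPM in chow, passed the adjusted threshold (log2 fold change 7.54, SE 1.13, edgeR adjusted p = 0.0247). Of the endothelial markers 0 passed. The 2 tested macrophage markers summed to 2.29 to 21.4 CPM in KD and 2.68 to 84.1 CPM in chow, and the 3 tested B cell markers, mostly Cd79b, to 59.4 to 85.8 CPM in KD and 29.6 to 46.9 CPM in chow. The part of these marker differences in the results was not tested. Values without KD replicates 3 and 4, the libraries with the most endothelial RNA, are given for some results only. They keep KD replicate 2, where the stromal and mesothelial markers summed to 546 CPM. Bulk RNA cannot tell fewer cells of a type from less RNA per cell.

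The start regions of the members held motifs for the nuclear factors best known for mitochondrial genes, and they are shown for that reason. RefSeq (GRCm38.p6) windows of 300 bases, from 250 before to 50 after the start, were matched by symbol for 68 of the 77 members, in 74 windows. The ETS core CCGGAAG, which GABP (also called NRF2) binds, was on either strand in 33.8% of the member windows, in 16.4% of the windows of coding genes with counts here and in 8.86% of all 32851 windows. The NRF1 motif TGCGCA, one arm of its palindrome, was in 28.4%, 13% and 7.76% in the same order. The YY1 core AAGATGG was in 17.6%, 6.68% and 6.34%, and the E box CACGTG, which Myc binds, in 9.46%, 9.55% and 7.15%. None of these motifs was found in 35.1% of member windows, against 62.6% of the coding gene windows. Member windows were also rich in CpG (median 21.5 per window, against 19 for the coding genes and 7 for all windows), and the share of a motif moves with base composition. A match of letters is not a binding site.

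The 200 bases before the start are printed for the 2 members with a single listed start that hold an ETS core and the NRF1 letters there, and for Mrps23, the member with the smallest p between the diets, where no motif was found in this stretch. Capitals mark the motifs, and all 3 lie on the plus strand of GRCm38.
Mrps18a, chr17:46110804-46111003: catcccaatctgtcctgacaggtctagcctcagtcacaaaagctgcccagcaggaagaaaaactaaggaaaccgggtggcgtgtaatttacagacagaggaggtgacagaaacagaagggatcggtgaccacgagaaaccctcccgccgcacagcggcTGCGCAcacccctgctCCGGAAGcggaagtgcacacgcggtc
Mrpl22, chr11:58171464-58171663: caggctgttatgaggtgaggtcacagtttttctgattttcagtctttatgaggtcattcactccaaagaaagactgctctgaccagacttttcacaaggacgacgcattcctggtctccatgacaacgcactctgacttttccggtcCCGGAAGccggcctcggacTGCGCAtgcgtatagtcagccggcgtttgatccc
Mrps23, chr11:88204188-88204387: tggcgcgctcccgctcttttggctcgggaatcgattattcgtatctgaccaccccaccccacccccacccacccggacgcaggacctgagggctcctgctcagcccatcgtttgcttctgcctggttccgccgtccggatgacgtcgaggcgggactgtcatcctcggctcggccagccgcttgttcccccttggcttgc
In Mrps18a the NRF1 letters begin 42 bases and the ETS letters 26 bases before the RefSeq start. In Mrpl22 the order is turned, with the ETS letters at 53 and the NRF1 letters at 34. The GENCODE M21 starts of both genes lie further upstream, inside the printed stretches. By that annotation the last 18 bases printed for Mrps18a and the last 3 for Mrpl22 are exonic, and the distances are shorter.

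The members lie on 17 chromosomes (GRCm38, GENCODE M21), with at most 10 on any of them, chromosome 11. A coding gene on the opposite strand starts within 500 bases upstream of 16 of the 77 members (20.8%), against 8.38% of the 13645 coding genes with counts. Mrps12 is paired in this way with Sars2, the mitochondrial seryl-tRNA synthetase gene, whose start lies 172 bases upstream. Exonic bases are shared with another gene for 29 members, and for 17 of them the shared part is over 10% of the exonic length. It is 88.0% for Mrpl53, 77.8% for Mrps34 and 69.8% for Mrps25. No source used here states whether counting used the strand, so reads in such bases may belong to the neighbour.

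All 77 genes were expressed in every sample, and all passed the filter on low counts. The lowest estimated count of any member was 62, for Mrps22 in KD replicate 4. Levels of different genes are compared here as FPKM (fragments per length of gene and per library size, as the authors deposited them). The median over members was 43.3 FPKM in KD and 40.0 FPKM in chow (medians of the gene means), and over all tested genes it was 10.2 FPKM in KD and 10.1 FPKM in chow. By their mean over the 8 samples, 60 members lay between 20 and 100 FPKM, 12 below and 5 above, and the highest was 29.1 times the lowest. Levels in the 2 diets ranked the members almost alike (Spearman's rho 0.98 across members, a description, since genes are not independent replicates and share each library). By class the median was 59.3 FPKM for the conserved small subunit proteins, 35.5 for the mitochondria-specific ones, 45.0 for the conserved large subunit proteins and 28.8 for the mitochondria-specific ones.

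Mrpl33, a small conserved protein of the large subunit (ENSMUSG00000106918.3, chromosome 5, 31596935 to 31664384), had the highest level, at 242, 213, 300.2 and 259 FPKM in KD replicates 1 to 4 and 310.1, 292, 254 and 243 FPKM in chow replicates 1 to 4. Mrps21, a conserved small subunit protein, followed at 161 to 218 FPKM in KD and 155 to 186 FPKM in chow. Its highest value, in KD replicate 3, lay above the lowest of Mrpl33. Mrps14 averaged 126 ± 13.4 FPKM in KD and 128 ± 12.6 FPKM in chow (SD, n = 4 each), Mrpl42 averaged 119 ± 14.02 FPKM in KD and 113 ± 13.3 FPKM in chow, and Mrps33 averaged 98.2 ± 10.8 FPKM in KD and 102 ± 14.5 FPKM in chow.

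At the other end stood Mrpl47, Mrpl11, Mrpl1, Mrps22 and Mrps31. Mrpl1 and Mrpl11 form the mobile stalk and the factor-binding stalk base of the large subunit, and Mrpl47 is its homologue of bacterial L29 near the exit of the peptide tunnel. Mrpl47 averaged 9.20 ± 1.34 FPKM in KD and 8.93 ± 2.77 FPKM in chow, Mrpl11 averaged 8.80 ± 1.38 FPKM in KD and 9.74 ± 2.24 FPKM in chow, and Mrpl1 averaged 10 ± 3.05 FPKM in KD and 9.91 ± 2.59 FPKM in chow (SD, n = 4 each). Mrps22 averaged 9.03 ± 4.57 FPKM in KD and 13.3 ± 3.70 FPKM in chow, and Mrps31 averaged 13.1 ± 1.22 FPKM in KD and 9.62 ± 0.963 FPKM in chow. The 24.2% of exonic bases that Mrpl47 shares with Ndufb5 and Actl6a make its level less certain. Of the 76 pairs of neighbours in the order of levels, 1 did not overlap: the lowest value of Mrps21, 155 FPKM, lay above the highest of Mrps14, 141 FPKM. In the other 75 the samples of neighbours overlapped, so the order has meaning only over wider gaps.

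**Figure D1:**
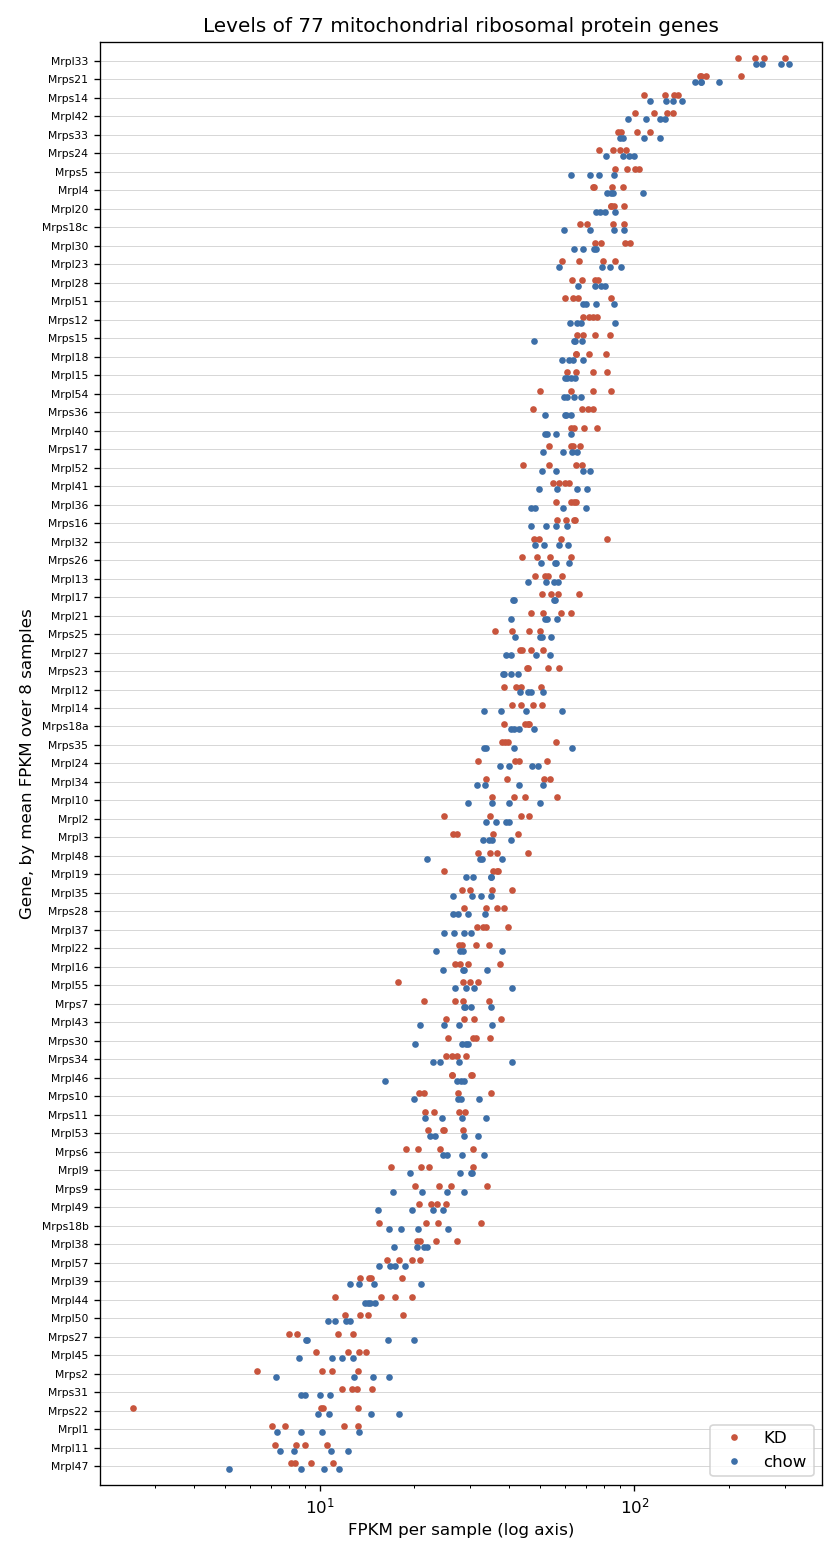
FPKM of each of the 77 genes in each of the 8 samples (log axis), KD above chow within each row, ordered by the mean over all samples. The lowest point is Mrps22 in KD replicate 4, at 2.55 FPKM, the lowest chow point is Mrpl47, at 5.16 FPKM, and Mrpl33 and Mrps21 head the order.

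No member changed with the diet at an adjusted p under 0.05 (edgeR's quasi-likelihood test, Benjamini-Hochberg over 13397 genes). Over all tested genes 68 passed, 0.508%, with 0.328% higher and 0.179% lower in KD. An unadjusted p under 0.05 was reached by 3 of the 77 members (3.90%), against 8.64% of all tested genes. By DESeq2 0 members passed, against 2.05% of all genes tested there, and 5 had an unadjusted p under 0.05, against 8.57%. By limma on log2(FPKM + 1) 0 members passed, against 0.941% of all, and 6 had an unadjusted p under 0.05, against 10.5%. By limma's voom with sample weights 0 members passed, against 0.709% of all, and 2 had an unadjusted p under 0.05, against 10%. Over 18 alternatives the smallest adjusted p of any member ran from 0.0599, for Mrps23 by DESeq2, to 0.743.

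Fold changes of the members were small and lay on both sides of 0. Of the 77, 44 had a positive log2 fold change (KD minus chow) and 33 a negative one, and 50.9% of all tested genes were positive. The median was 0.032, against 0.0065 over all tested genes, and 64 members lay within 0.25 of 0 in either direction. The range ran from -0.56 for Mrps22 to 0.44 for Mrps31. The 95% interval of the fold change lay inside a 1.5-fold change in both directions for 51 of 77 members (34.4% of all tested genes) and inside a 2-fold change for 74 (58.6% of all tested genes). These intervals are per gene and were not widened for the number of genes. The other 3, Mrps27, Mrps22 and Mrps2, had intervals that reach past a 2-fold fall. The members' spread between replicates was smaller than that of most genes (median biological coefficient of variation 0.190, against 0.273). It was smaller still for 2 lists of higher level, at 0.132 for nuclear respiratory chain subunits and 0.131 for cytosolic ribosomal proteins. The part of expression level in this was not tested.

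**Figure D2:**
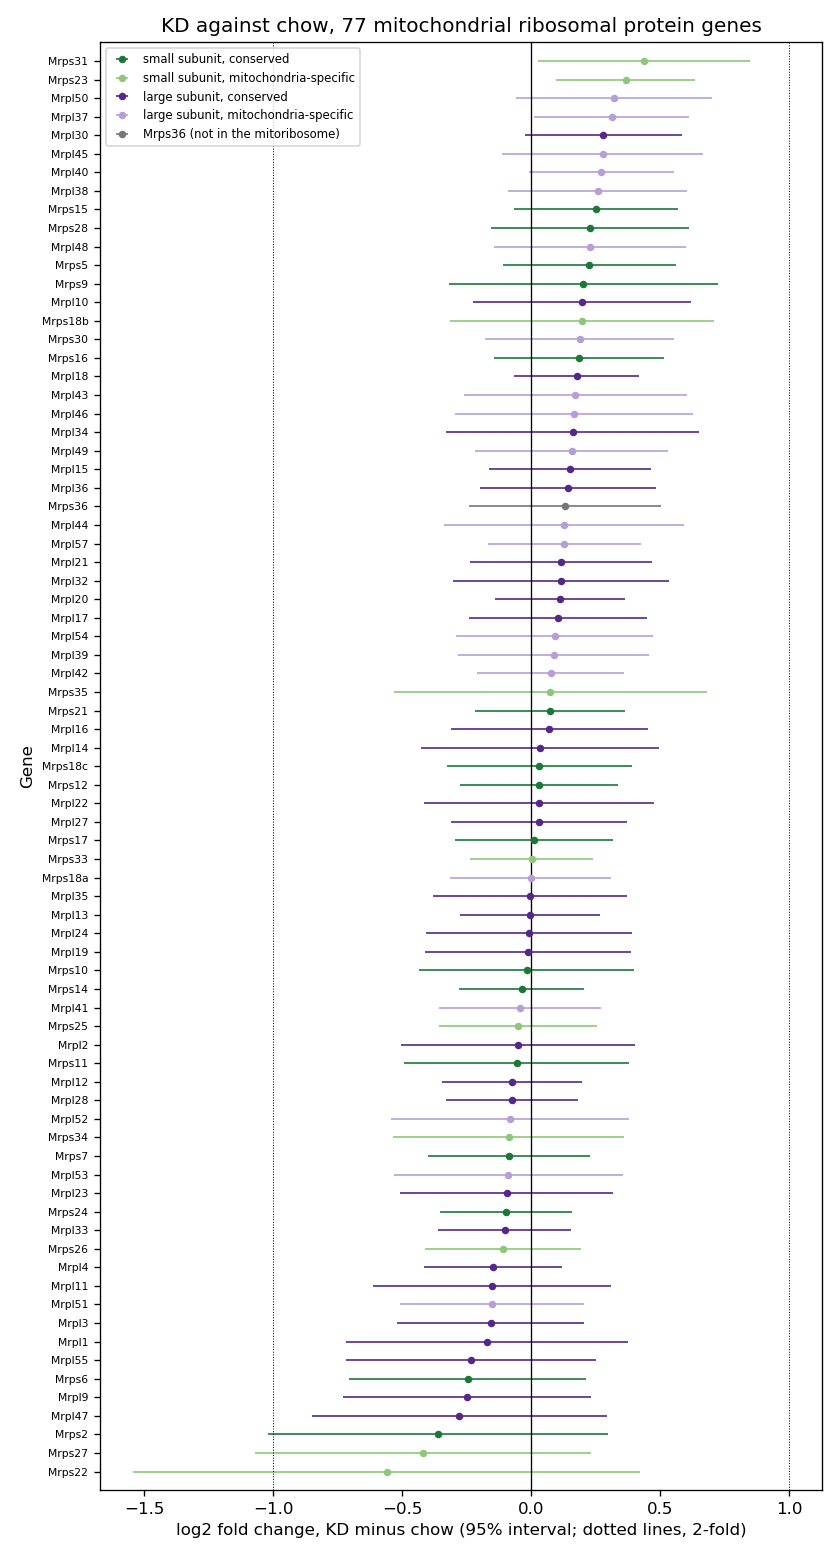
Log2 fold change (KD minus chow) of each member with its 95% interval from edgeR, ordered by size and coloured by subunit and class, with dotted lines at 2-fold. Of the 77 intervals 74 cover 0, and Mrps22 at the foot of the order has the widest.

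The members with the smallest p were 2 mitochondria-specific proteins of the small subunit. Mrps23 (ENSMUSG00000023723.17, chromosome 11, 88204388 to 88211507) had 56.6, 54.6, 50.2 and 61.3 CPM in KD replicates 1 to 4 and 43.7, 47.2, 39.3 and 42.7 CPM in chow replicates 1 to 4. Every KD sample lay above every chow sample, but the test did not pass (log2 fold change 0.37, SE 0.12, 95% interval 0.097 to 0.63, edgeR adjusted p = 0.380). Mrps31 (ENSMUSG00000031533.3, chromosome 8, 22411361 to 22429665) had 18.4, 19.2, 17.2 and 21.6 CPM in KD and 13.1, 14.4, 12.8 and 16.1 CPM in chow. These diets did not overlap either (0.44, SE 0.18, interval 0.028 to 0.85, edgeR adjusted p = 0.544).

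In the large subunit Mrpl37 and Mrpl30 showed the same separation. Mrpl37, a mitochondria-specific protein, had 55.5, 47.8, 44.5 and 46.0 CPM in KD and 42.8, 33.8, 38.3 and 41.4 CPM in chow (log2 fold change 0.31, SE 0.13, edgeR adjusted p = 0.557). Mrpl30, the homologue of bacterial L30, had 49.8, 39.5, 49.0 and 39.6 CPM in KD and 38.3, 38.3, 35.6 and 34.2 CPM in chow (0.28, SE 0.14, edgeR adjusted p = 0.624), with the lowest KD value little above the highest chow value. These 4 genes were the members whose diets did not overlap, 5.19% of the 77 and all higher in KD, against 6.05% of all tested genes, 3.30% higher and 2.75% lower. The share was near the background.

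For the other 4 of the 8 members with the smallest p the diets overlapped. Mrpl40 averaged 54.1 ± 4.61 CPM in KD and 44.8 ± 4.55 CPM in chow, Mrpl50 averaged 29.6 ± 5.41 CPM in KD and 23.7 ± 1.5 CPM in chow, and Mrpl38 averaged 28.9 ± 3.53 CPM in KD and 24.2 ± 1.71 CPM in chow (SD, n = 4 each). All of them are mitochondria-specific proteins of the large subunit. Mrps15, the homologue of bacterial S15, which binds rRNA early in assembly, averaged 62.2 ± 7.0 CPM in KD and 52.3 ± 7.46 CPM in chow. Their log2 fold changes were 0.25 to 0.32 and their adjusted p 0.596 to 0.715 (edgeR).

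**Figure D3:**
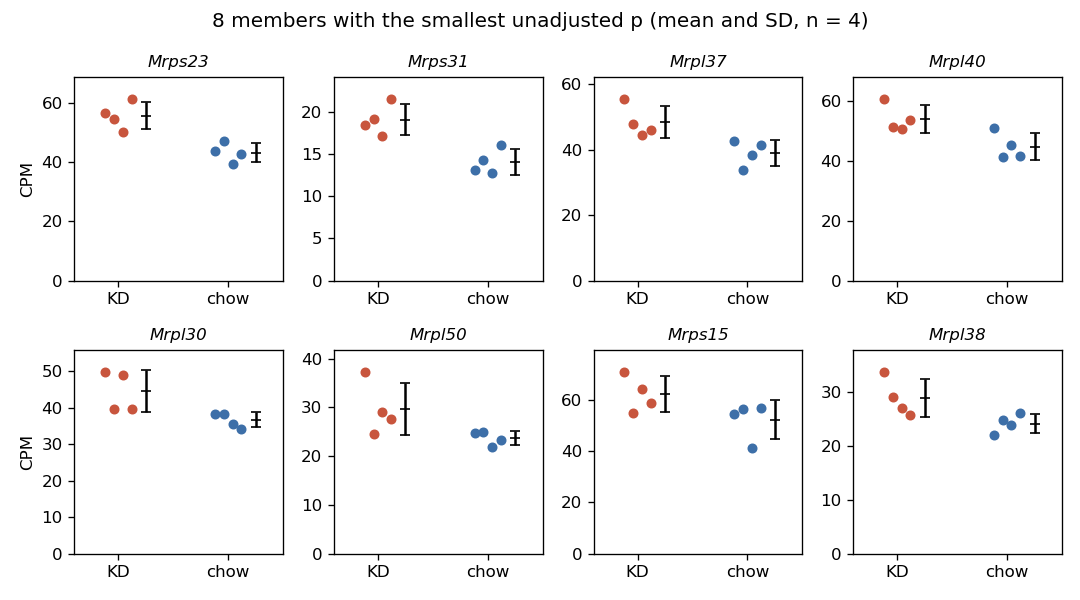
CPM in each sample (points) with the mean and SD (n = 4) for the 8 members with the smallest unadjusted p, KD left of chow. The points of the diets are apart for Mrps23, Mrps31, Mrpl37 and Mrpl30 and overlap for the other 4, and none of the 8 passed the adjusted test.

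The largest negative values belonged to small subunit genes with a wide spread between samples. Mrps22, whose human counterpart is mutated in a respiratory chain deficiency of infancy, had 11.9, 11.5, 14.9 and 2.87 CPM in KD and 16.4, 10.9, 12.2 and 21.2 CPM in chow. KD replicate 4 was far below the other KD samples and chow replicate 4 was the highest of all (log2 fold change -0.56, SE 0.44, interval -1.54 to 0.42, edgeR adjusted p = 0.811). Mrps27, a mitochondria-specific protein with a helical repeat fold, had 14.96, 20.2, 22.6 and 14.2 CPM in KD and 29.2, 34.5, 16.1 and 16.5 CPM in chow, where replicates 1 and 2 stood about 2-fold above replicates 3 and 4 (-0.42, interval -1.07 to 0.23, edgeR adjusted p = 0.768). Mrps2, the homologue of bacterial S2, had 12.6, 22.1, 26.5 and 20.6 CPM in KD and 34.3, 29.7, 14.7 and 26.5 CPM in chow (-0.36, interval -1.02 to 0.30, edgeR adjusted p = 0.826).

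The proteins with well known places in the ribosome given next differed by less than the SD of either diet, except Mrpl44. It differed by less than its KD SD but by more than its chow SD. Mrpl12, the stalk protein that recruits translation factors, averaged 50.3 ± 5.58 CPM in KD and 53.0 ± 2.77 CPM in chow (log2 fold change -0.07, 95% interval -0.35 to 0.20). Mrps12, at the decoding centre, averaged 39.6 ± 3.003 CPM in KD and 38.7 ± 4.49 CPM in chow (0.03, interval -0.27 to 0.34), and Mrps7, of the small subunit head, averaged 40.7 ± 5.36 CPM in KD and 43.3 ± 3.77 CPM in chow (-0.09, interval -0.40 to 0.23). Mrpl11 averaged 24.7 ± 3.78 CPM in KD and 27.4 ± 6.38 CPM in chow (-0.15, interval -0.61 to 0.31). Mrpl44, which has an RNase III fold, averaged 21.2 ± 5.05 CPM in KD and 19.4 ± 0.885 CPM in chow, so that its KD samples varied far more than its chow samples. Mrps30 averaged 46.4 ± 5.94 CPM in KD and 40.7 ± 6.95 CPM in chow (all SD, n = 4 each).

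The 3 Mrps18 genes encode homologues of bacterial S18 and are paralogs of each other. Their proteins occupy different sites of the ribosome, Mrps18c in the ancestral place, and only Mrps18c is classed as conserved here. Mrps18a averaged 35.2 ± 3.94 CPM in KD and 35.3 ± 2.56 CPM in chow (log2 fold change -0.0023, 95% interval -0.32 to 0.31). Mrps18b averaged 21.5 ± 5.57 CPM in KD and 18.8 ± 3.21 CPM in chow (0.20, interval -0.31 to 0.71), and Mrps18c averaged 33.1 ± 3.69 CPM in KD and 32.3 ± 4.82 CPM in chow (0.03, interval -0.33 to 0.39; SD, n = 4 each). Per length Mrps18c was the highest, at 79.01 FPKM in KD and 77.8 FPKM in chow, and Mrps18b the lowest, at 23.4 FPKM in KD and 20.2 FPKM in chow. Mrps18b and Mrps18c share 30.5% and 23.2% of their exonic bases with Gm16279 and Gm43511. Mrps36, which is not part of the ribosome, averaged 38.0 ± 7.15 CPM in KD and 34.7 ± 2.55 CPM in chow (0.13, interval -0.24 to 0.50).

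By subunit, the 26 small subunit members had a median log2 fold change of 0.0068, with 14 positive, and the 50 large subunit members 0.072, with 29 positive. Within the large subunit, 15 of 20 mitochondria-specific proteins were positive (median 0.14), against 14 of 30 conserved ones (median -0.0049). In the small subunit 5 of 10 mitochondria-specific (median -0.024) and 9 of 16 conserved proteins (median 0.021) were positive. The difference between classes was not tested, since genes of a class share their libraries. Without KD replicates 3 and 4 the median of all members was 0.050 and 43 were positive.

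Libraries differed in the mean level of the members about as much within a diet as between diets. The mean log2 CPM over all members was 5.24, 5.10, 5.21 and 5.07 in KD replicates 1 to 4 and 5.22, 5.11, 5.07 and 5.08 in chow replicates 1 to 4. Replicate 1 of either diet was the highest of its diet: 35 members had their highest KD value in KD replicate 1, and 38 their highest chow value in chow replicate 1. KD replicate 4 was lowest in its diet for 31 members. Members took 0.295% to 0.329% of all counts in KD and 0.284% to 0.319% in chow. The mitochondria-specific large subunit proteins averaged 5.04 to 5.22 in KD and 4.94 to 5.11 in chow on the log2 CPM scale, so the diets overlapped there too. Beside these means, the stromal and mesothelial markers summed to 25.8, 546, 475 and 628 CPM in KD replicates 1 to 4 and 17.9, 10.6, 23.2 and 217 CPM in chow replicates 1 to 4. The library with the least of this RNA had the highest member mean in KD but not in chow.

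**Figure D4:**
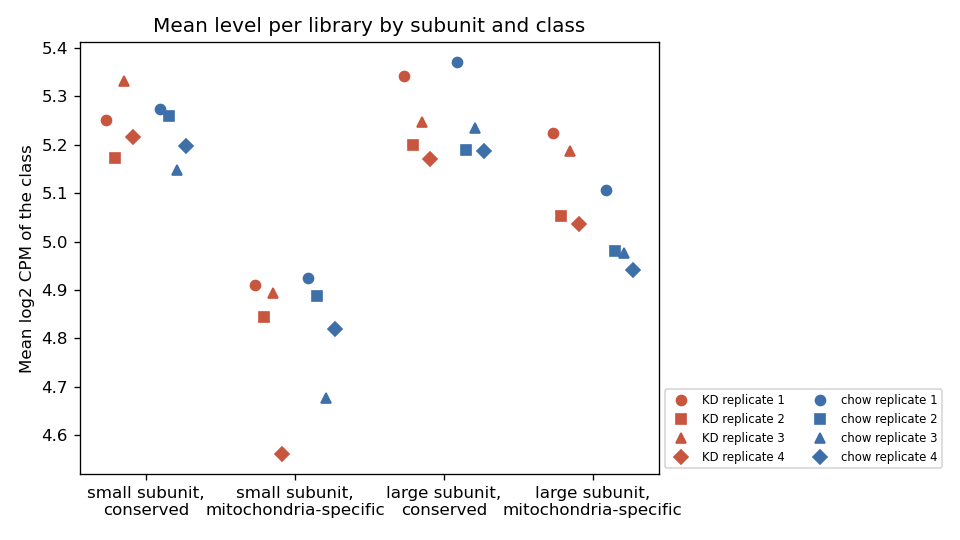
Mean log2 CPM per library over the members of each subunit and class, KD left of chow, with a symbol for each replicate number. The diets overlap in all 4 classes, and KD replicate 4 has the lowest mean of the mitochondria-specific small subunit proteins, at 4.56.

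Most members were even between replicates, and a minority were not. The median coefficient of variation of CPM over members was 12.81% in KD and 12.99% in chow, against 22.3% in KD and 22.1% in chow over all tested genes. For nuclear respiratory chain subunits the median was 11.1% in KD and 8.30% in chow. For cytosolic ribosomal proteins it was 14.4% in KD and 8.20% in chow. Among the members, values differed by gene. The coefficient exceeded 25% in either diet for 12 members, 8 in KD and 7 in chow. Mrps22 had 50.3% in KD and 30.7% in chow, Mrps35 had 28.5% in KD and 35.0% in chow, and Mrps2 had 28.3% in KD and 31.8% in chow, and these 3 were over 25% in both.

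Counts of Mrpl23 may be tied to those of a pseudogene row, which was not tested. The table lists 5 pseudogenes with symbols of this kind, and Mrpl23-ps1 held 170 to 381 estimated counts in KD and 458 to 554 in chow, the others at most 30. Mrpl23 itself had 36.1, 30.5, 39.8 and 27.2 CPM in KD and 36.1, 37.5, 26.7 and 42.3 CPM in chow (log2 fold change -0.09, edgeR adjusted p = 0.952). Mrpl23-ps1 had 12.01, 13.1, 19.3 and 7.87 CPM in KD and 20.2, 18.2, 17.5 and 15.2 CPM in chow (-0.45, edgeR adjusted p = 0.718). Estimated counts divide reads that fit several places, so how reads are split between the gene and its copy is uncertain, and their sum was 46.4 ± 9.98 CPM in KD and 53.4 ± 6.18 CPM in chow (SD, n = 4 each).

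The rest of the pathway gave 0 genes past the adjusted threshold in 9 lists of mitochondrial translation, its templates and its partners. Over all tested genes the share was 0.508%, so few or no calls are likely in lists of this size. The 6 mitoribosomal proteins with other symbols had a median log2 fold change of 0.12, with 4 positive. Dap3, a GTP-binding protein of the small subunit, was at 56.4 ± 8.69 CPM in KD and 44.6 ± 9.29 CPM in chow (SD, n = 4 each; 0.34, SE 0.18, edgeR adjusted p = 0.667). Ict1, a peptidyl-tRNA hydrolase built into the large subunit, was at 28.7 ± 4.57 CPM in KD and 28.9 ± 2.75 CPM in chow (SD, n = 4 each; -0.012, edgeR adjusted p = 0.994). Of 24 genes for assembly and rRNA modification 16 were positive (median 0.11, and -0.056 without KD replicate 1). The smallest p there belonged to Mrm1, an rRNA methyltransferase, with 39.8, 38.7, 34.9 and 31.3 CPM in KD and 53.0, 50, 45.7 and 41.4 CPM in chow. Every KD sample lay below every chow sample (-0.39, SE 0.14, edgeR adjusted p = 0.431), as for 2.75% of all tested genes.

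Of 13 translation factors 7 were positive (median 0.15), with the initiation factor gene Mtif2 at 0.39 (SE 0.20, edgeR adjusted p = 0.657). Without KD replicate 3 the median of this list was -0.051, and without KD replicates 3 and 4 it was -0.087. Of 17 mitochondrial aminoacyl-tRNA synthetases 10 were positive (median 0.13, and 0.012 without KD replicate 1), with Tars2 at -0.45 (SE 0.19, edgeR adjusted p = 0.544). Sars2, the divergent partner of Mrps12, had 42.3, 26.8, 26.6 and 23.2 CPM in KD and 14.9, 25.02, 22.2 and 19.0 CPM in chow (0.55, edgeR adjusted p = 0.556). Of 22 genes of mitochondrial transcription and RNA processing 14 were positive (median 0.067), with Mtpap, the mitochondrial poly(A) polymerase, at 0.35 (SE 0.12, edgeR adjusted p = 0.401).

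The rRNAs that the members bind, and the mRNAs that they translate, varied more between KD than between chow libraries, with a median coefficient of variation of 30.7% in KD and 21.8% in chow for the rRNAs and of 22.1% in KD and 11.4% in chow for the mRNAs; this difference was not tested. mt-Rnr1, the small subunit rRNA, had 94.9, 70.3, 126 and 155 CPM in KD and 156, 130.4, 99.5 and 89.3 CPM in chow (log2 fold change -0.09, SE 0.25, edgeR adjusted p = 0.967). mt-Rnr2, the large subunit rRNA, had 936, 621, 1078 and 1285 CPM in KD and 1154, 1031, 842 and 779 CPM in chow (0.04, SE 0.20, edgeR adjusted p = 0.983). In both the diets overlapped. These are RNAs caught in a polyA library, so they need not follow total rRNA. Of the 13 mitochondrially encoded protein genes 7 were positive (median 0.11), with mt-Nd4l at 0.63 (SE 0.21, edgeR adjusted p = 0.369), and without KD replicates 3 and 4 their median was -0.19. The median of the 2 rRNAs was -0.025, and without those replicates it was -0.41.

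The 78 tested nuclear subunits of the respiratory chain had a median of -0.014, with 35 positive, and Uqcrc2, a complex III core protein, had the smallest p (0.33, SE 0.11, edgeR adjusted p = 0.359). The 83 tested cytosolic ribosomal proteins had a median of -0.13, with 9 positive and 74 negative and 0 called. Rps25 had the smallest p there (-0.43, SE 0.12, edgeR adjusted p = 0.227). These genes share their libraries, and their mean log2 CPM overlapped between diets. It was 7.42, 7.05, 7.49 and 7.31 in KD replicates 1 to 4, so KD replicate 2 was the lowest. In chow replicates 1 to 4 it was 7.54, 7.45, 7.47 and 7.35. The part of KD replicate 2 in the negative median was not tested. Members stood below both of these lists in level: the medians were 42.9 FPKM for members, 165 FPKM for the respiratory chain subunits and 313 FPKM for the cytosolic ribosomal proteins.

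**Figure D5:**
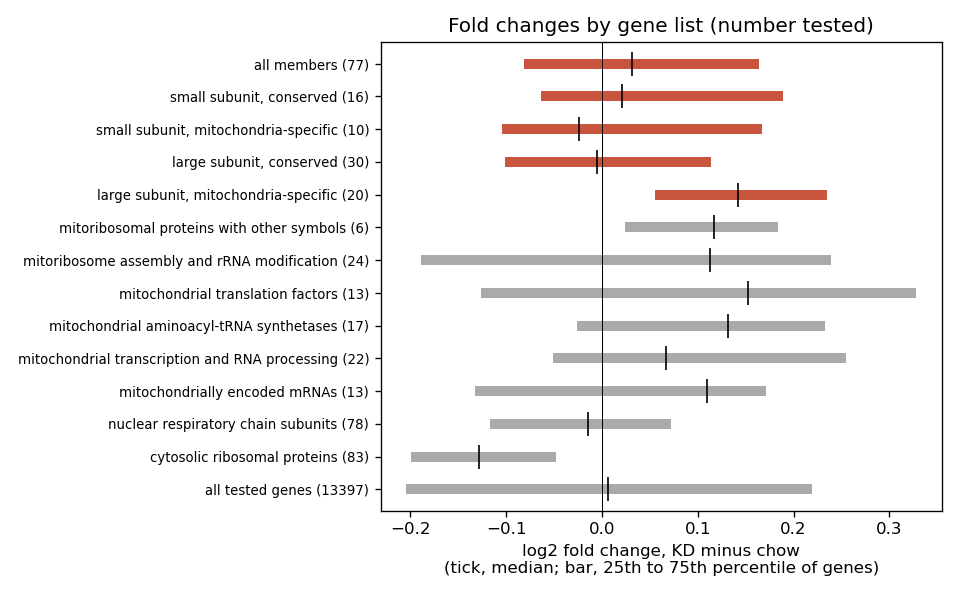
Median (tick) and 25th to 75th percentile (bar) of the log2 fold change (KD minus chow) for the members, their 4 classes and the other lists, with the number of genes tested. The members' median, at 0.032, lies close to that of all tested genes, at 0.0065, and their bar is narrower.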

How the data were processed

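The authors deposited estimated counts per gene and FPKM values for the same 8 samples. Per the submitters' processing notes, the tools were TopHat2, BWA, DESeq2 and RSEM and the build was GRCm38, with no version or role stated. Counts were not whole for 34 of the 77 members in at least 1 sample and were rounded before count tests. Columns were mapped to samples by title, and 0 other columns held sample values. Genes were kept by edgeR's filterByExpr (minimum count 10, minimum total 15), leaving 13397. The diets were compared in edgeR (quasi-likelihood F test, robust, TMM factors, diet as the only term, two-sided), with Benjamini-Hochberg adjustment over all tested genes and a threshold of 0.05. The standard error (SE) is the size of the log2 fold change over the square root of F, and 95% intervals use the test's degrees of freedom. Versions were edgeR 4.0.16, DESeq2 1.42.0 and limma 3.58.1, run in R 4.3.3. A floor of 3 counts was 0.113 to 0.152 CPM in KD and 0.094 to 0.125 CPM in chow, covering counting error only. All 77 members were located in GENCODE M21 by Ensembl identifier.

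The members and lists were chosen with earlier results of these data known. No set test was made. Named members are the 8 with the smallest p, the 5 highest and the 5 lowest by mean FPKM, the Mrps18 family and a preset group (Mrpl12, Mrps12, Mrps7, Mrpl11, Mrpl44, Mrps30, Mrps36, Mrps2, Mrps22 and Mrpl58, which the table lists as Ict1), and of other lists the gene with the smallest p, both mitochondrial rRNAs and Trdc. Mrps27, Mrps35, Mrpl23 and Sars2 were chosen after their values were seen. Alternatives were RLE factors, library totals, no filter, at least 5 CPM in 4 samples, a replicate block, DESeq2, voom weights, limma on log2 of FPKM plus 1 or 0.1, and leaving out samples.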

Additional observations from a re-analysis of the deposited data

Results flagged for a closer look

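In 4 of the 80 sets of 4 samples examined (the 27 named members and the means of 13 gene lists, in each diet), 1 sample stood apart by more than Dixon's 95% limit for 4 values, 0.829 of the range. Chance alone marks about 1 set in 20. Mrps21 had 74.9 CPM in KD replicate 3, against 56.0 to 58.0 CPM in the other KD samples. Mrps30 had 30.4 CPM in chow replicate 1, against 43.3 to 45.7 CPM in the other chow samples. Mrps15 had 41.2 CPM in chow replicate 3, against 54.6 to 57.0 CPM in the others, and Mrps36 had 30.9 CPM in the same library, against 35.5 to 36.3 CPM.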

How the results depend on the processing

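Under all 18 alternatives 0 members were called, and the members' median stayed between 0.022 and 0.070, with 40 to 50 positive. Over all genes the count called (68) was 108 with at least 5 CPM in 4 samples, 464 by DESeq2, 126 and 119 by limma on FPKM plus 1 and 0.1, 12 to 44 leaving out a sample, and 4 without KD replicates 3 and 4. The labels do not state that replicate numbers pair the samples. Between samples of the same number, deviations from the diet mean correlated at -0.114, 0.0405, -0.106 and 0.0536 over all genes (replicates 1 to 4). Over the members the values were 0.236, 0.0335, -0.381 and -0.176. Such correlations cannot decide if samples shared a batch. With a replicate block 12 genes and 0 members were called. Of 486 values of named members 29 changed sign, in 11 members, none over 0.093 in size, and the cause was not tested. Mrps18a turned to 0.0023 with library totals, 0.015 by voom and 0.022 by limma on FPKM plus 1 or 0.1. Mrps33 turned to -0.0083 without a filter and -0.054 by either FPKM fit. Mrpl47 turned to 0.079 and 0.093 by the FPKM fits. Leaving out a sample gave ranges of -0.064 to 0.066 for Mrps18a, -0.025 to 0.053 for Mrps33, -0.059 to 0.114 for Mrps18c, -0.018 to 0.110 for Mrps12, -0.087 to 0.024 for Mrps14 and -0.037 to 0.116 for Mrps21. Without KD replicates 3 and 4, Mrps33 was -0.045, Mrps21 -0.038, Mrpl42 -0.070, Mrpl12 0.038, Mrps7 0.050 and Mrps36 -0.078. The lowest count of a member was 62 (Mrps22, KD replicate 4), and no other member fell under 100 in any sample.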
